A study of Mus musculus with 20 samples.

Results

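The genes of the lipid droplet coat and of the making and breakdown of the fat inside it were followed across the liver and kidney of 7c-treated mice. The 10 genes were chosen by name, out of the 57010 genes in the count table: the perilipins Plin2, Plin3, Plin4 and Plin5, the CIDE proteins Cidea and Cideb, the lipase Pnpla2 with its inhibitor G0s2, and the acyltransferases Dgat1 and Dgat2. RNA-seq read counts were available for 20 libraries, 6 from 7c mice and 4 from vehicle mice in each organ. All were male UM-HET3 mice, genetically diverse animals from a cross of inbred strains, 12 months of age. The 7c mice received repsox, tranylcypromine, DZNep, CHIR99021, forskolin and TTNPB at 0.1 mg/kg/day each with valproate at 1 mg/kg/day. These were dissolved in 50% DMSO and 50% PEG300, and the vehicle mice received that solvent alone. Both groups were dosed from subcutaneous osmotic minipumps for 28 days. The comparison asks whether the transcripts of the droplet machinery differ between 7c and vehicle mice in either organ.

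A lipid droplet is a core of triglyceride and sterol esters under a single layer of phospholipid. Perilipins bind that surface and limit the access of lipases, CIDE proteins gather at the contacts between droplets and move lipid from the smaller to the larger, and PNPLA2 (adipose triglyceride lipase) starts the breakdown of triglyceride. G0S2 binds PNPLA2 and blocks it, while DGAT1 and DGAT2 carry out the last step of triglyceride synthesis. Hepatocytes and proximal tubule cells both form droplets when fatty acid supply exceeds use, and in adipocytes the droplet fills most of the cell.

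Total counts ran from 28383359 to 34153084 in the livers and from 27855849 to 64872451 in the kidneys. Counts were expressed as CPM, parts per 1000000 of a library's total after TMM scaling within a tissue, and 9 of the 10 members passed the filter on low counts (10 or more in 50% or more of a tissue's libraries) in liver and in kidney. Cidea passed in neither. The labelled tissues matched their markers: the 5 hepatocyte genes summed to between 64561 and 96460 CPM in the livers and to between 1050 and 1480 CPM in the kidneys, where most of the sum was Hnf4a (884 to 1155 CPM), a transcription factor gene that the kidney also expresses, and the 5 proximal tubule genes summed to at least 33347 CPM in the kidneys and to at most 1.65 CPM in the livers. A few libraries stood apart. The liver of 7c replicate 6 held skeletal muscle transcripts (577 CPM over 5 genes, against 0.578 CPM or less in the other livers). The first principal component of the kidneys, with 40.5% of the variance, had 7c replicate 5 and vehicle replicate 2 together at its high end. The kidneys of 7c replicates 1, 4 and 5 held the brown fat transcript Ucp1 (6.72, 31.8 and 17.7 CPM), which had at most 0.0600 CPM in the other kidneys.

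Plin2 (ENSMUSG00000028494, chr4:86565912-86588459) codes for the perilipin that coats droplets in most cells outside adipose tissue; positions are on GRCm39, from GENCODE. In liver it was at 376, 468 and 523 CPM (lowest, median and highest of the 7c livers) against 457, 427, 431 and 492 CPM in the vehicle livers. The ranges of the treatment groups overlapped in liver, and the log2 fold change was 0.03 ± 0.10 (SE). In kidney the 7c mice had 45.5, 59.9 and 83.3 CPM (lowest, median and highest), and the 4 vehicle mice had 16.2, 68.8, 22.2 and 51.4 CPM. Vehicle kidneys 1 and 3 were below every 7c kidney, and vehicle kidneys 2 and 4 lay inside the 7c range. The log2 fold change in kidney was 0.62 ± 0.34 (SE), with an adjusted p of 0.997 by edgeR's quasi-likelihood test. It was 1.03 without vehicle replicate 2, 0.36 without vehicle replicate 1 and 0.42 without vehicle replicate 3, with adjusted p-values of 0.476, 1.00 and 1.00.

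The 250 bases before the annotated start of the canonical Plin2 transcript (GRCm39, minus strand, chr4:86588460-86588709) and those before Plin4 (minus strand, chr17:56416932-56417181) are given because, of the 9 members that passed the filter on low counts, Plin2 differed most between the tissues and Plin4 had the largest fold change with 7c in kidney. Neither window holds an annotated exon. Capitals mark every match, on either strand, to 9 patterns: the nuclear receptor core site AGGTCA, that site repeated 1 base or 5 bases apart, the E-box CACGTG, the TATA box TATAAA, the GC box GGGCGG, the CCAAT box, the cAMP response core TGACG, and the TCF site ATCAAAG. No match overlaps another.
Plin2: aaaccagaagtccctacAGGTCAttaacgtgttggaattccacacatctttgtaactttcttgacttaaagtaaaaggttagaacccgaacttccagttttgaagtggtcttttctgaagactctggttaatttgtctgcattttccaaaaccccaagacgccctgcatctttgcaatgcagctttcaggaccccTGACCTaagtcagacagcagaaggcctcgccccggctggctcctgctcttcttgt
Plin4: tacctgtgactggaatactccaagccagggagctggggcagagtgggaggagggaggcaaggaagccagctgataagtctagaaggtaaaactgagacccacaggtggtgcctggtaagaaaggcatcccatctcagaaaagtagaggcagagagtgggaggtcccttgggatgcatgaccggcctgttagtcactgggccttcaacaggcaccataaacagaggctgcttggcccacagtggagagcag
The Plin2 window held 2 nuclear receptor core sites, at bases -233 to -228 and -55 to -50 counted from the start, the second on the opposite strand. Of the 21770 protein-coding promoters of the same length, 13.1% held at least 1 such site. The share with 2 or more was not counted. The Plin4 window held no match to the 9 patterns, of which the most common, the CCAAT box and the GC box, were found in 36.5% and 36.3% of promoters. G and C made up 46.0% of the Plin2 window and 55.6% of the Plin4 window, against a median of 53.2% over all promoters.

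Plin3 (ENSMUSG00000024197, chr17:56584218-56599873) codes for the broadly expressed perilipin that joins newly forming droplets. It varied little in either organ. In kidney it was 51.7, 62.5 and 69.0 CPM (lowest, median and highest) in the 7c mice and 52.2, 62.7, 59.7 and 56.0 CPM in the vehicle mice. In liver it was 41.9, 51.1 and 69.1 CPM in the 7c mice and 54.2, 51.6, 46.2 and 45.4 CPM in the vehicle mice. The treatment groups overlapped in both organs, with log2 fold changes of 0.12 ± 0.11 (SE) in kidney and 0.09 ± 0.12 (SE) in liver. The highest value in liver belonged to 7c replicate 6, the library with muscle transcripts, and without it the log2 fold change was -0.0016.

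Plin4 and Plin5 lie next to each other on chromosome 17, on the minus strand with 1514 bases between them, and Plin3 follows 159607 bases from Plin5 on the same strand. Plin4 (ENSMUSG00000002831, chr17:56406617-56416931) codes for a perilipin of adipocytes and muscle. In kidney the 7c mice had Plin4 at 3.39, 3.57, 11.9, 7.15, 10.3 and 6.22 CPM (replicates 1 to 6), and the vehicle mice had 2.88, 2.84, 2.89 and 5.34 CPM. All 6 7c kidneys were above vehicle replicates 1, 2 and 3, and 4 of the 6 were above vehicle replicate 4. The log2 fold change, 1.03 ± 0.37 (SE), was the largest of the 9 members tested, with an unadjusted edgeR p of 0.0168 and an adjusted p of 0.997. In liver Plin4 was 2.19, 3.51 and 5.99 CPM (lowest, median and highest) in the 7c mice and 3.43, 3.50, 1.65 and 4.97 CPM in the vehicle mice, so the groups overlapped, with a log2 fold change of 0.21 ± 0.35 (SE), which was -0.01 without vehicle replicate 3 and 0.05 without 7c replicate 6. Plin4 shared 3124 of its exonic bases, 39.1%, with Hdgfl2 on the opposite strand, so its counts are uncertain to the extent that the counting ignored strand.

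In kidney, Plin4 moved with the transcripts of white fat cells. Adipoq, the adipocyte hormone adiponectin, was at 1.67, 1.68, 11.4, 5.33, 8.64 and 4.18 CPM in the 7c kidneys (replicates 1 to 6) and at 1.36, 0.111, 1.28 and 2.51 CPM in the vehicle kidneys. The order of the kidneys by Plin4 was almost that by Adipoq. Over the 10 kidneys Pearson's r was 0.861 (permutation p = 0.00029, adjusted p = 0.00174 over 12 relations) and Spearman's rho was 0.988 (permutation p = 1e-05, the smallest the resampling can give, adjusted p = 0.00012). Without the 2 kidneys farthest from the median of Plin4, r was 0.762, and within the 6 7c kidneys alone it was 0.999. The 3 genes whose pattern over the 10 kidneys was most like that of Plin4, among 14208 genes with a mean of at least 1 CPM, were Cidec (r = 0.924), Adrb3 (r = 0.906) and Dynll2 (r = 0.903). Cidec codes for the CIDE protein of white fat and Adrb3 for the adrenergic receptor of adipocytes. In liver the 3 closest patterns were those of 1110059G10Rik, Gpcpd1 and Pcgf5, with r between 0.906 and 0.928.

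The summed level of the white fat list was also higher in the 7c kidneys. Its 8 genes summed to 58.7, 97.5 and 155 CPM in the 7c kidneys (lowest, median and highest) and to 37.4, 49.6, 45.2 and 49.0 CPM in the vehicle kidneys, with no overlap. Most of the sum was Fabp4, with means of 65.8 CPM in the 7c kidneys and 38.5 CPM in the vehicle kidneys. Of all genes tested in kidney, 0.716% had treatment groups without overlap. 7 of the 8 listed genes passed the filter. All 7 had an unadjusted edgeR p under 0.05, as had 463 of the 17749 genes tested. None was called after adjustment, while DESeq2 called Cidec. Genes that were low in the vehicle kidneys, such as Lep, passed the filter through the 7c kidneys, so the count of 7 is a description and no support for a difference. The list was also written with earlier results of these data known. None of the 8 was at 0 in every kidney of a group. In the livers the list summed to at most 16.8 CPM, with Lep at 0 in all 10 libraries. In bulk tissue, more cells of a type and more RNA per cell cannot be told apart, and the part of white fat transcripts in the Plin4 values was not tested. The albumin transcript Alb was also present in the kidneys, at 8.69, 12.7 and 30.7 CPM in the 7c mice (lowest, median and highest) and at 44.0, 38.2, 32.7 and 22.8 CPM in the vehicle mice. Its log2 fold change in kidney was -1.08 ± 0.32 (SE). Other hepatocyte genes had -1.73 ± 0.55 (Apoa1), -2.99 ± 0.77 (Cps1), -0.08 ± 0.33 (Ttr) and -0.03 ± 0.11 (Hnf4a, all SE). None was called by edgeR, and Cps1 had at most 58 counts in a kidney.

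**Figure D1:**
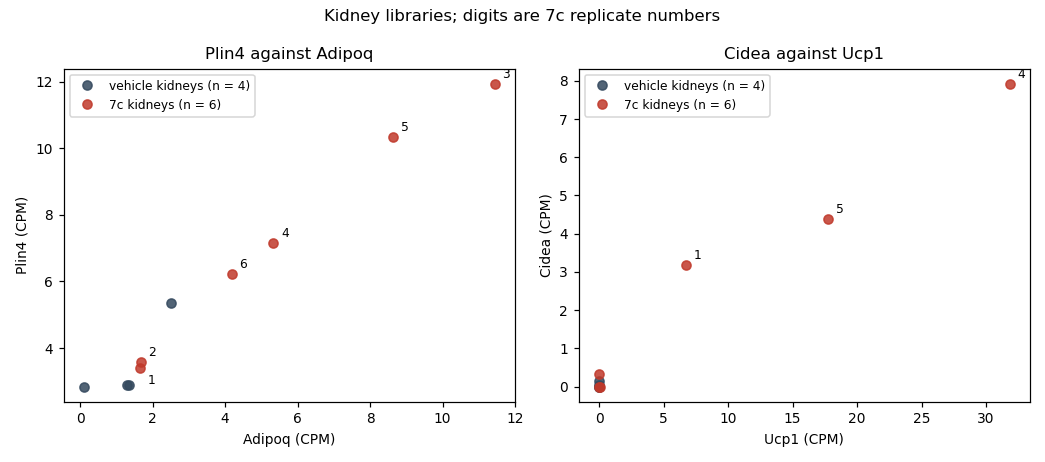
CPM of Plin4 against Adipoq (left) and of Cidea against Ucp1 (right) in the 10 kidney libraries; each point is a kidney, and digits give the replicate number of 7c kidneys. Plin4 followed Adipoq over all kidneys, with 7c replicates 3 and 5 highest for both, while Cidea was above 3 CPM only in 7c replicates 1, 4 and 5, the kidneys with Ucp1.

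Plin5 (ENSMUSG00000011305, chr17:56418446-56424610) codes for the perilipin of oxidative tissues, which ties droplets to mitochondria. In liver it was 30.1, 36.7 and 46.2 CPM (lowest, median and highest) in the 7c mice and 32.4, 29.8, 46.0 and 36.4 CPM in the vehicle mice. The ranges of the treatment groups were almost the same, and the log2 fold change was 0.02 ± 0.15 (SE). Among the 7c livers, replicates 1, 2 and 3 (39.6, 40.3 and 46.2 CPM) were above replicates 4, 5 and 6 (30.7, 33.8 and 30.1 CPM). In kidney Plin5 was 4.53, 5.69 and 11.1 CPM in the 7c mice and 3.58, 9.25, 5.03 and 6.88 CPM in the vehicle mice. Of the 3 kidneys with Ucp1 transcripts, 7c replicates 4 and 5 had the highest Plin5 of all kidneys, 10.3 and 11.1 CPM, and 7c replicate 1 had the lowest of the 7c kidneys, 4.53 CPM. The log2 fold change in kidney was 0.19 ± 0.32 (SE), and -0.16 without the 3 kidneys with Ucp1. It was 0.02 without 7c replicate 5 and 0.45 without vehicle replicate 2.

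Cidea (ENSMUSG00000024526), the CIDE protein of brown fat, could not be tested after the filter. In kidney it had 210, 0, 12, 306, 140 and 0 counts in the 7c mice (replicates 1 to 6) and 2, 0, 0 and 4 counts in the vehicle mice. Cidea was thus carried by 7c replicates 1, 4 and 5, at 3.18, 7.92 and 4.38 CPM, and these were the same kidneys that held Ucp1, while the other 3 7c kidneys had at most 0.321 CPM. The kidneys fell into separate clusters, so no correlation is given. The means were 2.63 ± 3.18 CPM (SD) in the 7c kidneys and 0.0480 ± 0.0659 CPM (SD) in the vehicle kidneys, and the exact permutation test over 210 assignments gave p = 0.133, two-sided, where the smallest possible p is 0.00476. Without the filter, edgeR gave Cidea an adjusted p of 0.722 in kidney. The 4 other brown fat genes summed to 10.2, 41.4 and 20.9 CPM in these 3 kidneys and to at most 0.576 CPM in the other 7 kidneys, and Ucp1 and Otop1 were at 0 in all 4 vehicle kidneys. Elovl3, also among the 4, did not follow the sum. For it, 5 of the 6 7c kidneys were below all vehicle kidneys (0.314 to 0.390 CPM), and the highest 7c kidney had 1.84 CPM. The kidneys of 7c replicates 1, 4 and 5 also had the highest sums of the 5 skeletal muscle genes, 3.42, 3.44 and 2.82 CPM, against 0.480 to 1.45 CPM in the other 7 kidneys. The part of brown fat and muscle transcripts in the Cidea values was not tested.

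In liver Cidea had 8, 2, 0, 0, 6 and 0 counts in the 7c mice and 0, 0, 0 and 26 counts in the vehicle mice. The highest value was in vehicle replicate 4, at 0.760 CPM, and 6 of the 10 livers had none. The exact permutation test gave p = 0.829, two-sided.

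Cideb (ENSMUSG00000022219, chr14:55991507-55996099) codes for the CIDE protein of hepatocytes, which takes part in the lipidation of very low density lipoproteins. In liver it was 3.12, 3.59 and 4.33 CPM (lowest, median and highest) in the 7c mice and 3.17, 2.92, 2.84 and 2.92 CPM in the vehicle mice. 5 of the 6 7c livers were above all vehicle livers, and 7c replicate 2 lay within the vehicle range. The log2 fold change was 0.30 ± 0.19 (SE), with an adjusted p of 1.00 by edgeR. In kidney Cideb was 2.01, 2.26 and 2.66 CPM in the 7c mice and 2.72, 0.835, 2.33 and 2.13 CPM in the vehicle mice, a log2 fold change of 0.20 ± 0.29 (SE), which was -0.05 without vehicle replicate 2. These counts are low, at most 135 in a library, and 67.9% of the exonic bases of Cideb are shared with Nop9 on the opposite strand, so reads of Nop9 may be counted as Cideb.

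Pnpla2 (ENSMUSG00000025509, chr7:141034404-141040656), the lipase, was more abundant in kidney. It was 134, 169 and 254 CPM (lowest, median and highest) in the 7c kidneys and 132, 219, 111 and 166 CPM in the vehicle kidneys. The highest kidney values belonged to 7c replicate 5 and vehicle replicate 2, the 2 kidneys at the end of the first principal component. In liver it was 52.1, 54.7 and 77.4 CPM in the 7c mice and 69.2, 65.8, 48.6 and 70.4 CPM in the vehicle mice. Among the 7c livers, replicates 1, 2 and 3 (52.5, 52.8 and 52.1 CPM) were below replicates 4, 5 and 6 (56.6, 76.6 and 77.4 CPM). The treatment groups overlapped in both organs, and the log2 fold changes were 0.21 ± 0.21 (SE) in kidney and -0.05 ± 0.15 (SE) in liver. Without the 3 kidneys with Ucp1, the value in kidney was -0.07, and with 1 library left out it ran from 0.07 without vehicle replicate 3 to 0.42 without vehicle replicate 2.

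G0s2 (ENSMUSG00000009633, chr1:192949563-192956177), the inhibitor of that lipase, had overlapping treatment groups in both organs. In liver it was 88.5, 69.7, 66.9, 37.4, 33.1 and 52.3 CPM in the 7c mice (replicates 1 to 6) and 43.1, 62.5, 93.0 and 111 CPM in the vehicle mice. The median of the 7c livers, 59.6 CPM, fell between replicates 1 to 3 and replicates 4 to 6, which did not overlap. The split of the 7c livers was not tested. In kidney it was 13.03, 14.7 and 36.3 CPM (lowest, median and highest) in the 7c mice and 9.81, 40.7, 23.1 and 20.7 CPM in the vehicle mice. As for Pnpla2, 7c replicate 5 and vehicle replicate 2 were the highest kidneys of their groups. G0s2 had a log2 fold change below 0 in both organs, -0.42 ± 0.29 (SE) in liver and -0.33 ± 0.37 (SE) in kidney, and neither passed the test. The liver value was -0.19 without vehicle replicate 4, and the kidney value was 0.08 without vehicle replicate 2 and -0.62 without 7c replicate 5. Its closest patterns were Rit1, Tma16 and Sowahc in liver, with r between 0.888 and 0.923, and Gm15823, AI854703 and Camk1g in kidney, with r between 0.916 and 0.923.

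Dgat1 (ENSMUSG00000022555, chr15:76385083-76396476) and Dgat2 (ENSMUSG00000030747, chr7:98802491-98831991) complete triglyceride from diacylglycerol with unrelated proteins. Dgat2 was 465, 525 and 685 CPM (lowest, median and highest) in the 7c livers and 541, 484, 479 and 436 CPM in the vehicle livers, and 197, 210 and 236 CPM in the 7c kidneys against 188, 196, 193 and 198 CPM in the vehicle kidneys. In kidney 5 of the 6 7c values of Dgat2 were above all vehicle values, but the difference was small, a log2 fold change of 0.13 ± 0.09 (SE). In the livers the log2 fold change was 0.15 ± 0.12 (SE), and 0.07 without 7c replicate 6, the liver with muscle transcripts and the highest Dgat2. Among the 7c livers, replicates 1, 2 and 3 (474, 465 and 502 CPM) were below replicates 4, 5 and 6 (557, 548 and 685 CPM). Dgat1 was 33.9, 35.0 and 51.2 CPM in the 7c kidneys and 30.7, 34.3, 30.5 and 32.1 CPM in the vehicle kidneys, with 4 of the 6 7c kidneys above the vehicle range and a log2 fold change of 0.24 ± 0.13 (SE), which was 0.13 without 7c replicate 5, the highest kidney. In liver Dgat1 was 19.1, 24.6 and 27.0 CPM in the 7c mice and 21.8, 25.4, 22.2 and 26.4 CPM in the vehicle mice, a log2 fold change of -0.01 ± 0.12 (SE). Over the 10 kidneys Dgat1 and Dgat2 varied together, with Pearson's r = 0.910 (permutation p = 0.00026, adjusted p = 0.00174) and Spearman's rho = 0.794 (permutation p = 0.00877, adjusted p = 0.0526), r = 0.791 without the 2 kidneys farthest from the median of Dgat1 and r = 0.905 within the 6 7c kidneys. In liver r was -0.02 (permutation p = 0.964). Of the exonic bases of Dgat1, 54.6% are shared with Hsf1 on the opposite strand. The remaining 8 of the 12 relations, those of Plin2 or Plin4 with Plin5, of Pnpla2 with G0s2 and of Plin5 with the fasting gene Pdk4, had adjusted p-values of 0.124 or more for r, all by permutation.

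**Figure D2:**
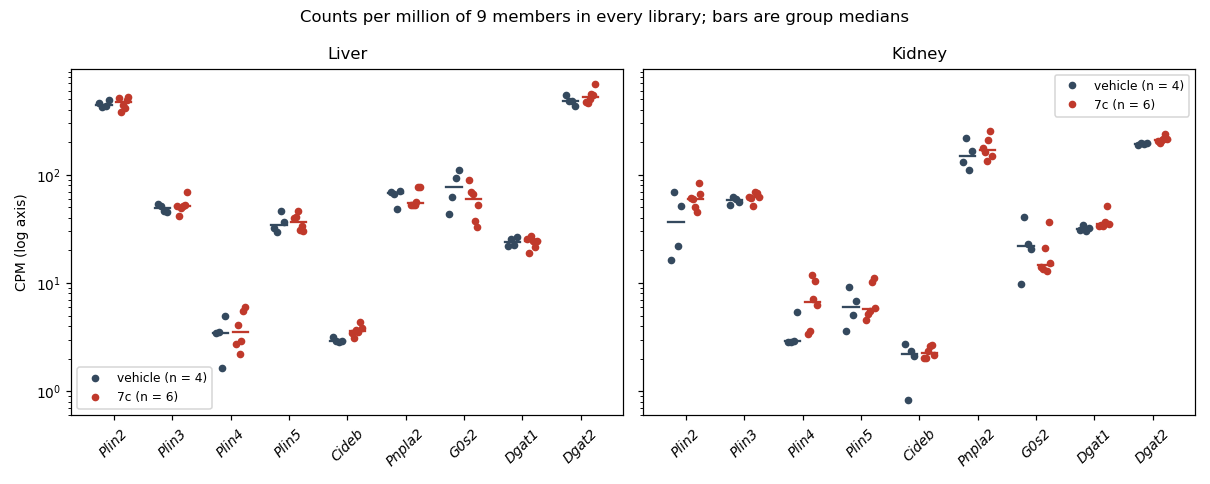
CPM on a log axis of the 9 members that passed the filter, in the livers (left) and kidneys (right); each point is a library, red for 7c (n = 6) and dark for vehicle (n = 4), and bars are medians. The treatment groups overlap for all 9 members in both organs, and the kidney values of Plin2 spread most in the vehicle group, from 16.2 to 68.8 CPM.

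Across the members, then, none of the 9 tested was called between 7c and vehicle in liver or in kidney. The background was just as low: in liver 0.00666% of the 15012 genes tested were called (1 gene), in kidney 0.0% of 17749. No member had 7c and vehicle groups that did not overlap, against 0.719% of all genes tested in liver and 0.716% in kidney. In kidney 8 of the 9 members had a log2 fold change above 0, with a median of 0.20 where the median over all genes was -0.01, and 1 had an unadjusted p under 0.05. In liver 6 of the 9 were above 0, with a median of 0.03 against 0.00 over all genes, and none had an unadjusted p under 0.05, where 565 genes of the whole table did. In kidney 463 genes had such a p. DESeq2 called 6 genes in liver and 18 in kidney and limma-voom called 1 and 2, none of them a member. The interaction of treatment and tissue was also not called for any of the 9 members, against 0.00706% of 14163 genes. The interaction values of Plin4 and Plin2 were -0.82 ± 0.53 (SE) and -0.59 ± 0.39 (SE), both with an adjusted p of 1.00 by edgeR. That of Plin4 was -0.50 without 7c replicate 3, and that of Plin2 was -0.33 without vehicle replicate 1 and -1.01 without vehicle replicate 2, so their order is not fixed.

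**Figure D3:**
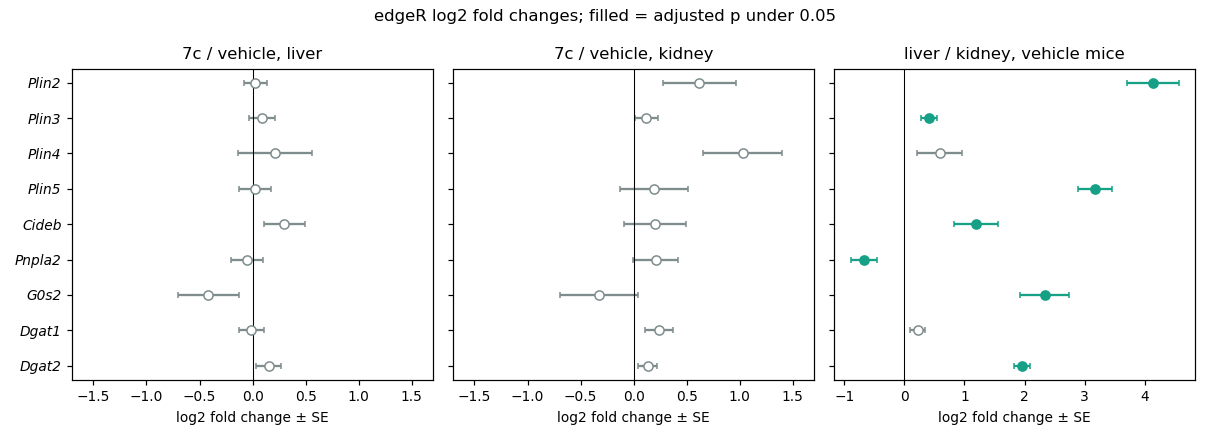
log2 fold changes with their SE from edgeR for the 9 tested members: 7c against vehicle in liver (left) and kidney (middle), and liver against kidney in vehicle mice (right); filled points have an adjusted p under 0.05. No point is filled in the treatment panels, and 7 of the 9 are filled in the tissue panel, where Plin2 and Plin5 have the largest values.

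The organs differed far more than the treatments. In the 4 vehicle livers and 4 vehicle kidneys, 7 of the 9 members were called, 6 higher in liver and 1 higher in kidney, where 53.4% of the 17245 genes tested were called, so a call alone sets the members little apart. Plin2 was higher in liver by a log2 fold change of 4.14 ± 0.43 (SE, adjusted p = 1.07e-05 by edgeR), and Plin5 by 3.17 ± 0.29 (SE, adjusted p = 3.25e-06). G0s2 was higher in liver by 2.34 ± 0.41 (SE, adjusted p = 0.00058), Dgat2 by 1.95 ± 0.13 (SE, adjusted p = 2.82e-07) and Cideb by 1.20 ± 0.37 (SE, adjusted p = 0.0173). Pnpla2 was lower in liver, with a log2 fold change of -0.68 ± 0.22 (SE, adjusted p = 0.0225). Plin3 was higher in liver by 0.41 ± 0.13 (SE, adjusted p = 0.0184), a call that was lost without the filter (adjusted p = 0.0745) and without vehicle replicate 1 or 4 (0.147 and 0.0583). Without vehicle replicate 4, the calls of Cideb and Pnpla2 were also lost, with adjusted p-values of 0.0635 and 0.0754, and 4 members stayed called. Plin4 (0.59 ± 0.37, SE) and Dgat1 (0.22 ± 0.13, SE) did not pass.

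The median of all genes in this comparison was -0.06 with TMM and -0.13 with RLE scaling, and the members' values moved by a like amount. The count of the inhibitor G0s2, not corrected for length, was 1.12 times that of its lipase Pnpla2 at the median of the 10 livers (0.433 to 1.91) and 0.113 times at the median of the 10 kidneys (0.0617 to 0.209). G0s2 was below Pnpla2 in 5 of the 10 livers and in all 10 kidneys. The ratios of the 10 livers and of the 10 kidneys did not overlap.

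Per length of transcript, Dgat2 and Plin2 were the most abundant members in vehicle liver, at 99.4 ± 9.49 and 72.7 ± 4.26 RPKM (mean ± SD). RPKM is here the CPM per kilobase of merged exons with TMM factors set over all 20 libraries together, not within a tissue as for the CPM above, so that the organs share 1 scale. In vehicle kidney, Pnpla2 (31.9 ± 9.93 RPKM) and Dgat2 (25.6 ± 0.677 RPKM) were highest, and their ranges overlapped. G0s2 (20.9 ± 7.98 RPKM), Pnpla2 (19.97 ± 3.28 RPKM) and Plin5 (14.6 ± 2.67 RPKM) followed in liver, and each overlapped with its neighbour in that order. Below them in liver came Plin3 (8.38 ± 0.826 RPKM), Dgat1 (6.52 ± 0.659 RPKM), Cideb (2.19 ± 0.117 RPKM) and Plin4 (0.524 ± 0.209 RPKM), with no overlap between neighbours. In kidney, Plin3 (6.31 ± 0.538 RPKM), Dgat1 (5.59 ± 0.356 RPKM), G0s2 (4.14 ± 2.28 RPKM) and Plin2 (4.13 ± 2.61 RPKM) overlapped with their neighbours, as did Plin5 (1.61 ± 0.652 RPKM), Cideb (0.954 ± 0.385 RPKM) and Plin4 (0.348 ± 0.123 RPKM). Plin2 thus stood at place 2 in liver and at place 6 in kidney. The order depends on the length used. With the canonical transcript, Plin2 (272 ± 15.96 RPKM) was above Dgat2 in liver and at place 3 in kidney. The whole count of a gene was also divided by the exonic bases that no other gene shares, which holds only if no counted read came from the shared bases. On that scale Cideb was at 13.2 ± 0.701 RPKM and Dgat1 at 14.4 ± 1.45 RPKM in vehicle liver, both above Plin3 at 8.54 ± 0.843 RPKM, and in vehicle kidney Dgat1, at 12.3 ± 0.784 RPKM, was also above Plin3, at 6.43 ± 0.548 RPKM. The places of Cideb and Dgat1 are therefore uncertain.

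**Figure D4:**
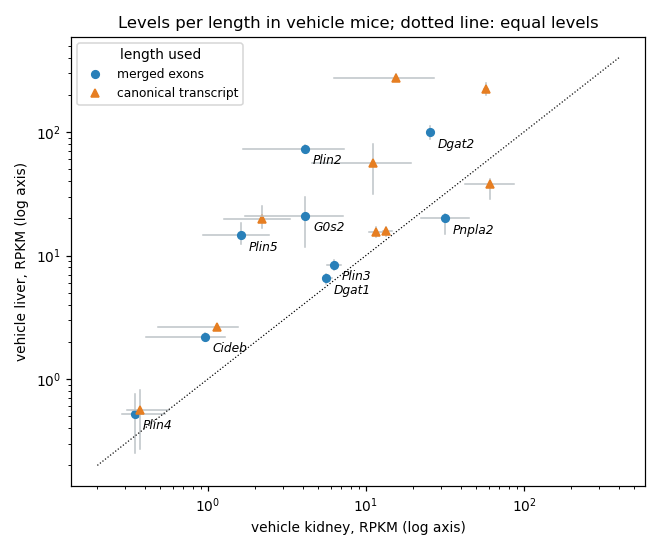
Mean RPKM of the 9 tested members in the 4 vehicle livers against the 4 vehicle kidneys, on log axes, per kilobase of merged exons (circles, named) or of the canonical transcript (triangles); lines span the lowest to the highest library, and the dotted line marks equal levels. Plin2, Plin5, G0s2 and Dgat2 lie far above the line and Pnpla2 below it.

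Ratios of counts within a library, which do not depend on scaling, were compared between 7c and vehicle mice with exact permutation tests, 4 ratios in 2 organs. The lowest adjusted p was 0.4, so none passed. In kidney Plin5 was 0.0748, 0.0869, 0.109, 0.226, 0.133 and 0.0897 times Plin2 in the 7c mice (replicates 1 to 6) and 0.222, 0.135, 0.228 and 0.134 times in the vehicle mice. 5 of the 6 7c kidneys were below all vehicle kidneys, though 7c replicate 5 only just, and 7c replicate 4 was among the highest. The mean log2 ratio was -3.17 ± 0.58 in the 7c kidneys (SD, n = 6) and -2.52 ± 0.43 in the vehicle kidneys (SD, n = 4), with an exact permutation p = 0.0952. Plin2 to Plin3 in kidney was -0.06 ± 0.29 (SD, n = 6) against -0.78 ± 0.91 (SD, n = 4) on the log2 scale, with an exact permutation p = 0.1, and vehicle kidneys 1 and 3 were again the low ones, at ratios of 0.310 and 0.371. The G0s2 to Pnpla2 ratio was lower in the 7c mice by 0.35 in liver and 0.48 in kidney on the log2 scale, within the spread between mice (exact permutation p = 0.476 and 0.233). In the 7c livers it was 1.69, 1.32 and 1.28 in replicates 1 to 3 and 0.662, 0.433 and 0.676 in replicates 4 to 6. Dgat2 to Dgat1 was 22.1 at the median of the livers and 6.02 at the median of the kidneys, and did not differ by treatment beyond its spread (exact permutation p = 0.333 and 0.352).

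**Figure D5:**
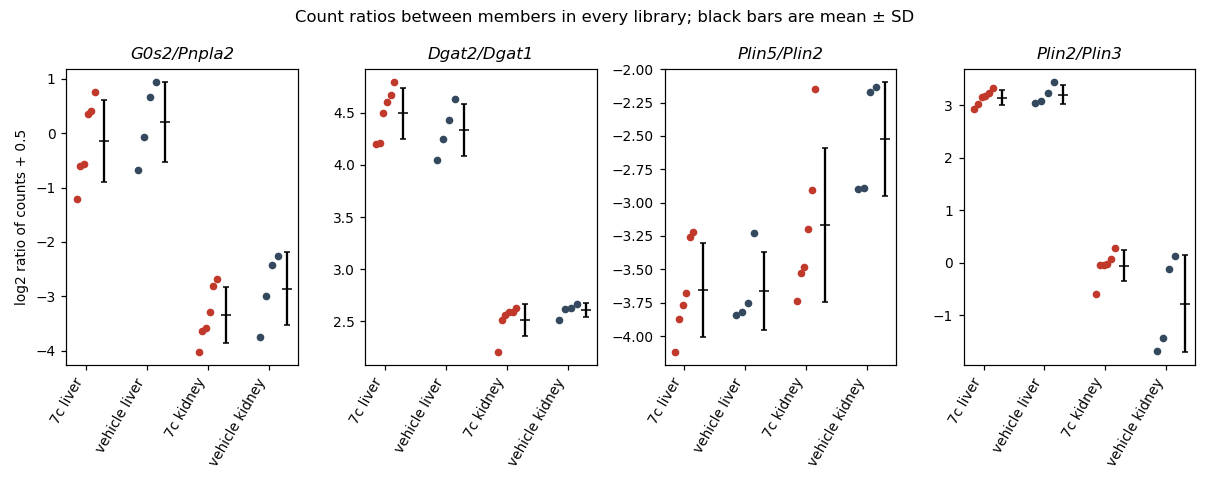
log2 ratios of counts (0.5 added) between pairs of members, a panel for each ratio, for 7c (red) and vehicle (dark) livers and kidneys; each point is a library and black bars are the mean ± SD. Liver and kidney separate for 3 of the ratios, G0s2/Pnpla2, Dgat2/Dgat1 and Plin2/Plin3, while 7c and vehicle overlap within each organ.

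Other genes of the droplet were read from lists of the same pathways. Of 21 further coat and structure genes, 20 were tested in liver and 21 in kidney, and none was called between 7c and vehicle by edgeR. In kidney 2 of them had an unadjusted edgeR p under 0.05, the white fat genes Cidec, with a log2 fold change of 2.55 ± 0.60 (SE), and Plin1, the perilipin of adipocytes, with 2.50 ± 0.84 (SE). Cidec was at 2.27, 8.38 and 14.4 CPM in the 7c kidneys (lowest, median and highest) and at 1.10, 0.446, 1.10 and 2.79 CPM in the vehicle kidneys, so 5 of 6 7c values were above the vehicle range. DESeq2 called Cidec in kidney, with an adjusted p of 0.00197, where edgeR gave 0.997 and the other alternatives from 0.122 to 1.00. The median log2 fold change of the list was -0.03 in kidney and -0.02 in liver, against -0.01 and 0.00 over all genes. Hilpda, an inhibitor of PNPLA2, had a log2 fold change of 0.57 ± 0.36 (SE) in kidney and -0.04 ± 0.32 (SE) in liver.

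Of 15 further lipases and cofactors, all tested in both organs, none was called with treatment. Abhd5, the coactivator of PNPLA2, had log2 fold changes of -0.05 ± 0.14 (SE) in liver and -0.02 ± 0.11 (SE) in kidney, Lipe, hormone-sensitive lipase, 0.15 ± 0.16 (SE) and 0.36 ± 0.26 (SE), and Mgll, monoglyceride lipase, 0.04 ± 0.14 (SE) and 0.13 ± 0.12 (SE). Only Pnpla3 in kidney had an unadjusted edgeR p under 0.05, with 1.78 ± 0.77 (SE). Of 21 other genes of triglyceride and sterol ester synthesis none was called either, and those with an unadjusted edgeR p under 0.05 were Lpin1 in liver, a phosphatidate phosphatase, with 1.25 ± 0.48 (SE), and Gpam in kidney, the first acyltransferase of the pathway, with -0.27 ± 0.12 (SE). Lpin1 was at 39.1, 32.5, 34.1, 65.7, 166 and 174 CPM in the 7c livers (replicates 1 to 6) and at 40.3, 30.2, 34.7 and 38.2 CPM in the vehicle livers. 7c replicates 4, 5 and 6 were thus above all vehicle livers, and the other 3 lay within their range. Of 16 targets of PPAR-alpha, the receptor that switches on fatty acid oxidation, none was called in the 16 tested in liver or the 15 tested in kidney, with medians of 0.14 and -0.13. Between the organs of the vehicle mice, 12 of 20 coat and structure genes were higher in liver and 2 lower, 9 of 15 lipases higher and 1 lower, 10 of 21 synthesis genes higher and 7 lower, and 9 of 16 PPAR-alpha targets higher and 3 lower, beside the 53.4% called of all genes.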

How the data were processed

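Stranded libraries of polyadenylated RNA from liver and kidney were sequenced by the authors, who used STAR 2.7.11b (GRCm39) for alignment and featureCounts 2.0.6 for the gene counts. The deposited values are raw counts. The annotation release, the strand setting and the treatment of reads with several positions were not given in the sources used here. Low counts were mostly even (77.2% of counts of 1 to 9, 53.7% of counts of 1000 or more), as when both mates of a read pair are counted, so a count is not always an independent fragment. All 20 columns were mapped by their labels, and 56310 of 57010 gene identifiers matched GENCODE vM39, which gave symbols, positions and lengths. Nothing in the labels says whether same-numbered liver and kidney samples come from the same mouse, and p-values measure the spread between these samples.

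Genes were kept where 50% or more of the samples compared had 10 counts or more, and tested with edgeR 4.0.16 in R 4.3.3 (TMM scaling, quasi-likelihood F-test, Benjamini-Hochberg adjustment, threshold 0.05), each tissue by itself, on the whole table. The study states the filter and a one-way model in edgeR for each tissue, and the quasi-likelihood test was chosen here. The interaction was tested over all 20 samples. In 12 relations, pairs of members, or a member and the marker gene Pdk4, Adipoq or Ucp1, were correlated on log2 CPM (prior count 2) with 100000 permutations. Ratios used 0.5 added to each count. Alternatives were DESeq2 1.42.0, limma-voom 3.58.1, RLE scaling, other filters, a replicate block, both tissues in 1 fit, halved counts and leaving out each replicate. The named genes are the 10 members, up to 5 genes per list and tissue with the lowest unadjusted p, a few droplet genes by name and the 3 closest patterns. Of the genes this rule allows, those that touch a result are printed. The methods were tested on simulated data with known changes. The members and the gene lists were chosen with earlier results of these data known. The alternatives with halved counts, without the kidneys with Ucp1 and without the kidneys at the end of the first principal component were chosen after seeing the data, as were the canonical and unshared lengths.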

Additional observations from a re-analysis of the deposited data

Results flagged for a closer look

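Over 56 sets of values (members and ratios, by group), 6 had an extreme sample far from the rest by Dixon's test, where chance gives about 1 in 20. Plin4 in the kidney of vehicle replicate 4 was 5.34 CPM, with the next at 2.89 CPM. Cidea in the liver of vehicle replicate 4 was 0.760 CPM, with none in the other vehicle livers. The kidney of 7c replicate 5, at the end of the first principal component, had the highest G0s2 of its group, 36.3 CPM with the next at 20.8 CPM, the highest Dgat1, 51.2 CPM with the next at 36.4 CPM, and the lowest log2 ratio of Dgat2 to Dgat1, 2.21 with the next at 2.51. The log2 ratio of Plin5 to Plin2 in the liver of vehicle replicate 3 was -3.23, with the next at -3.76.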

How the results depend on the processing

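Under every alternative run, no tested member was called with treatment in liver (adjusted p from 0.641 to 1.00) or kidney (0.476 to 1.00), and no interaction was called (0.616 to 1.00). Over the whole table, the treatment calls were 1 in liver and 0 in kidney, and 6 and 18 with DESeq2, 4 and 18 with both tissues in 1 fit, 4 and 3 without a filter. The member calls between tissues ranged from 4 to 7 of 9 when a replicate was left out. Of the members' recomputed fold changes, 546 kept direction and side of the threshold, 5 lost the call and 39 changed sign, all of them uncalled. Whether same-numbered liver and kidney samples are paired was not settled, so liver was not correlated with kidney. Their deviations correlated above 0.1 in 7 of 10 pairs, from 0.0115 to 0.259. Of the 10 livers, 8 were most like the kidney of their own number, more than an even draw among 6 7c or 4 vehicle kidneys would give. Same-numbered 7c and vehicle samples of a tissue, which are different mice, gave values from -0.0641 to 0.293. The main fits treated liver and kidney samples as unpaired. With the replicate block, the members called were 0 in liver, 0 in kidney, 7 between tissues and 0 for the interaction, as without it. In the treatment fits the block matched 7c and vehicle mice by number, though these are different mice, so the matching is arbitrary. 7c replicates 5 and 6 had no vehicle mouse of their number and added nothing to those estimates. The block turned liver log2 fold changes to -0.058 for Plin2, -0.029 for Plin3, -0.11 for Plin4 and 0.0021 for Dgat1, and the interaction of Cideb to -0.010 (-0.011 with limma-voom). Without a filter, Dgat1 in liver was 0.00035. Without the kidneys with Ucp1, Plin5 was -0.16 and Pnpla2 -0.073 in kidney, and without the kidneys at the end of the first principal component, Cideb was -0.10. Leaving out a replicate gave liver values from -0.011 to 0.080 for Plin2, -0.0016 to 0.15 for Plin3, -0.014 to 0.46 for Plin4, -0.056 to 0.17 for Plin5, -0.16 to 0.0041 for Pnpla2 and -0.055 to 0.044 for Dgat1. In kidney it gave -7.2e-05 to 0.45 for Plin5, -0.052 to 0.38 for Cideb and -0.62 to 0.077 for G0s2. For the interaction it gave -0.14 to 0.057 for Plin3, -0.50 to 0.056 for Plin5, -0.066 to 0.36 for Cideb, -0.56 to 0.32 for G0s2 and -0.077 to 0.082 for Dgat2. The log2 ratio difference in liver ran from -0.078 to 0.15 for Plin5 to Plin2 and from -0.11 to 0.023 for Plin2 to Plin3. With RLE scaling, r between Dgat1 and Dgat2 in liver was 0.0030. The cause was not tested. Cideb had at most 135 counts in a library, and Cidea had 0 counts in 6 of 10 livers and 4 of 10 kidneys.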
